A study of Mus musculus with 30 samples.

Results

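The genes of fatty acid and triglyceride synthesis were followed through brown adipocyte differentiation in cells whose glucocorticoid receptor gene was deleted and in control cells. The 39 genes were taken by name, among 23109 genes or unmatched accessions in the RNA tables, as enzymes or regulators of acetyl-CoA supply and fatty acid synthesis (7 genes), desaturation (6), elongation (8), activation (4), glycerolipid assembly (11) and transcriptional control (3). All 39 are in the tables. The values come from 8 RNA libraries, 1 for each of 2 lines at each of 4 times, and 22 ChIP samples of the series were not analysed here. In the line called Cre, a retrovirus carrying Cre recombinase was used to delete the floxed receptor gene Nr3c1. In the line called Vec, the control retrovirus left the floxed alleles in place. Both lines derive from preadipocytes of the interscapular brown fat of newborn GRf/f pups of strain C57BL/6J and carry SV40 T antigen, so both are immortalised and both have floxed Nr3c1 alleles before infection. The confluent cells were sampled before induction (D0), 4 hours after it (4h), and on day 2 (D2) and day 7 (D7). The inducing mix of insulin, the thyroid hormone T3, IBMX, dexamethasone and indomethacin was given to both lines, and the labels give its duration as 4 hours. The sources used here do not give the media used later, the number of infected pools or clones, or the number of pups. The study asks whether the receptor is needed for adipogenesis or sets its pace.

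Fat cells make fatty acids from acetyl-CoA in the cytosol. Acetyl-CoA is carboxylated to malonyl-CoA, fatty acid synthase builds palmitate from it, and elongases and desaturases turn palmitate into longer and unsaturated acids. Acyl-CoA synthetases activate the acids, and a chain of acyltransferases and a phosphatase joins them to glycerol until the DGAT enzymes close the triglyceride. SREBP-1, ChREBP and the liver X receptor alpha are transcription factors known to switch on these genes in response to insulin, glucose and sterols. In brown fat the pathway fills the lipid droplets whose fatty acids feed heat production.

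Each library held between 7.7 M reads (Cre 4h) and 28.9 M reads (Vec D2), and between 11471 and 12176 genes reached 1 RPKM, the deposited unit of reads divided by the length of the transcript and the depth of the library. Cre D0, Cre D2 and Cre D7 held 24.1, 26.5 and 24.7 M reads. Vec D0, Vec 4h and Vec D7 held 23.5, 12.3 and 15.2 M reads. Nr3c1 itself lay between 4.04 and 8.07 RPKM in the 4 Cre libraries and between 12.9 and 32.1 RPKM in the 4 Vec libraries, without overlap. The adipocyte genes Pparg, Cebpa, Fabp4, Adipoq, Plin1, Cidec, Lipe, Pnpla2, Lpl and Cd36 summed to 1860 RPKM in Cre D7 and 5165 RPKM in Vec D7. Of 7 brown-fat markers, 4 (Cidea, Prdm16, Ppargc1a and Cox8b) reached 1 RPKM in both lines at D7. The 7 summed to 46.6 RPKM in Cre D7 and 65.8 RPKM in Vec D7, mostly Cox8b at 41.2 and 49.7 RPKM. The brown-fat marker Ucp1, the uncoupling protein, reached 0.07 RPKM in Cre D7 and 0.88 RPKM in Vec D7, below 1 RPKM in both, as were Dio2 and Elovl3. Markers of macrophages summed to at most 1.55 RPKM and those of endothelium to at most 3.12 RPKM in any library. Each group is 1 library, so no value below has a replicate. Intervals cover counting error only.

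Promoters of 3 members show the sequence in front of genes from different steps of the pathway that were all at least 2-fold lower in Cre at D7: Fasn (fatty acid synthase), Thrsp (a nuclear protein of lipogenic cells) and Gpam (the first acyltransferase of glycerolipid assembly). Each is the 170 bases that end at the base before the RefSeq transcript start, read 5′ to 3′ on the gene's strand from RefSeq's GRCm38.p6 promoters, at chr11:120824548-120824717 (minus strand) for Fasn, chr7:97417551-97417720 (minus strand) for Thrsp and chr19:55127239-55127408 (minus strand) for Gpam. Capitals mark CCAAT on either strand (CCAAT or ATTGG), the box that the factor NF-Y binds.
Fasn: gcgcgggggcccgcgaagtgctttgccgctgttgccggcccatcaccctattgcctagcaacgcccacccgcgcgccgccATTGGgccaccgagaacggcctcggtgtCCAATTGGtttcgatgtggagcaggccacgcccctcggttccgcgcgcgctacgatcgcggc
Thrsp: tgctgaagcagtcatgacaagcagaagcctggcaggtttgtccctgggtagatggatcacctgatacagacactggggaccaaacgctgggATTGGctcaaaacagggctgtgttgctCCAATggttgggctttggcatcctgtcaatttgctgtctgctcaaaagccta
Gpam: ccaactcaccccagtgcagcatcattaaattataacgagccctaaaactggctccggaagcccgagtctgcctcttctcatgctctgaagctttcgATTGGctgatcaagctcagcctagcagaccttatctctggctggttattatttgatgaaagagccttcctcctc
Fasn held 3 such boxes, 2 of them sharing bases, Thrsp held 2 and Gpam held 1. Another window of Gpam, at a different transcript start, held none. Promoter entries were found for 32 of the 39 genes, with 44 windows in all, and Scd1, Scd2, Elovl3, Fads1, Agpat5, Dgat1 and Dgat2 had none. Over the 250 bases before the start, on both strands, CCAAT stood in 20 of the 44 windows (45.5%), against 33.8% of all 32851 windows. It was not particular to genes at least 2-fold lower in Cre at D7. Of these, Acss2, Acacb, Acsl1, Mlxipl and Srebf1 also had it, and Acaca, Scd3, Agpat2, Lpin1 and Nr1h3 did not. Elovl1, Lpin2 and Agpat4, which were not lower in Cre at D7, had it as well. GGGCGG, the box bound by Sp1, stood in 24 windows (54.5%), against 32.7% of all windows. TCACNCC, a short form of the sterol element bound by SREBP, stood in 7 windows (15.9%), against 13.4% of all. A match began 165 bases before the Gpam start, within the sequence printed above. CACGTG, the E-box core, stood in 3 windows (6.8%), against 6.0% of all. Some genes have more than 1 window, and a match of letters is a description, not a bound site.

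**Figure D1:**
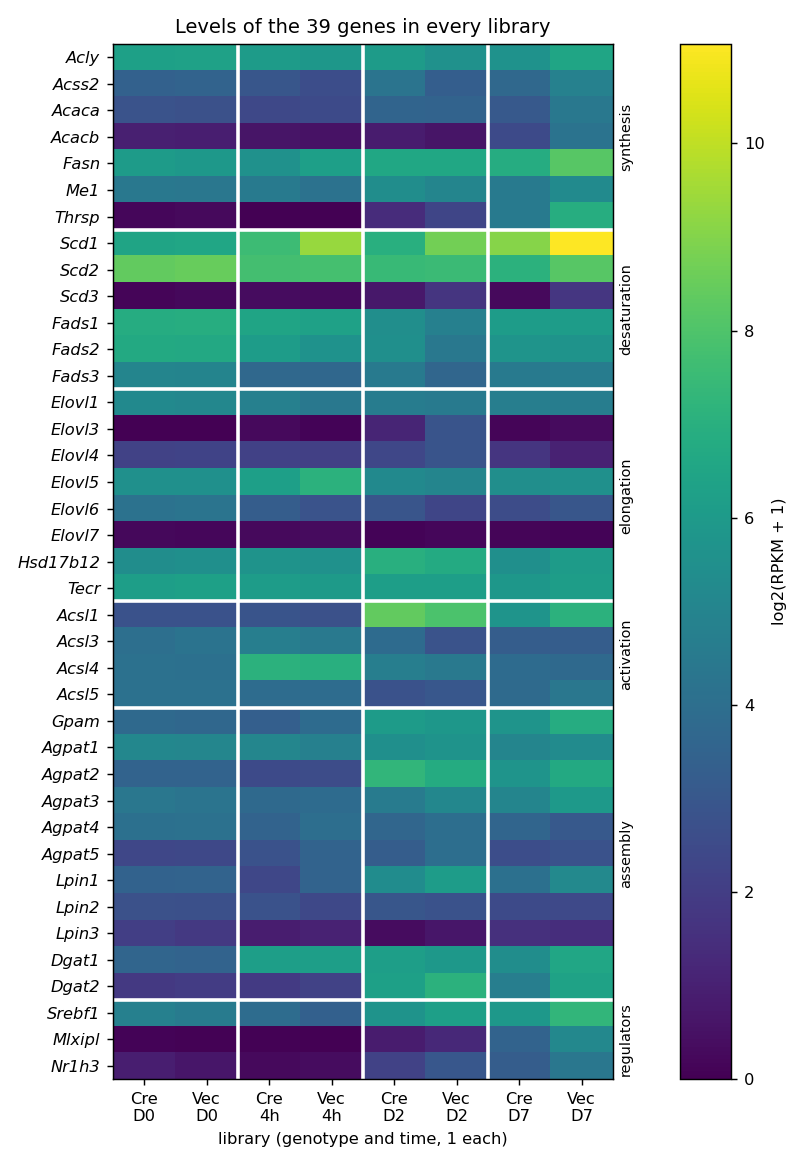
Levels of the 39 genes as log2(RPKM + 1) in each of the 8 libraries (columns, 1 library each, Cre left of Vec at each time), with genes in rows grouped by role. Scd1 in Vec D7 is the highest value, at 2137 RPKM, and Acsl1, Agpat2 and Dgat2 turn from dark to bright between 4h and D2 in both lines.

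Taken as a sum, the 39 genes held 1288, 1313, 1857 and 1661 RPKM in Cre at D0, 4h, D2 and D7, against 1306, 1804, 2026 and 4328 RPKM in Vec. The sums of the lines lay close together at D0 and far apart at D7. Scd1 alone made up 6.8, 14.6, 6.7 and 32.0% of the sum in Cre at the 4 times, against 7.1, 35.8, 20.3 and 49.4% in Vec. Of the 39 genes, 8 had their highest level at D7 in Cre, against 16 in Vec. The highest level was at D2 for 15 genes in Cre and 10 in Vec, at 4h for 5 in Cre and 4 in Vec, and at D0 for 11 in Cre and 9 in Vec. Elovl7, an elongase, stayed between 0.0727 and 0.240 RPKM in all libraries and was the 1 member below the filter of 1 RPKM in 2 libraries, which left 38 members for the tests of time.

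Differentiation was tested over both lines with time and genotype as additive terms, fitted to 12581 genes with edgeR's quasi-likelihood test and Benjamini-Hochberg adjustment at a threshold of 0.05. Its error is the departure of the 8 libraries from additivity, not the spread between cultures, and a response that differs between the lines counts as error. In all, 30 members passed in at least 1 of 5 comparisons of times.

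Within 4 hours of induction, 5 of the 38 members rose and 4 fell, set against 12.2% of all genes higher and 13.1% lower. Both shares of members were thus near those of all genes. The risers were the acyl-CoA synthetase Acsl4, the triglyceride enzyme Dgat1, the desaturase Scd1, the elongase Elovl5 and the acyltransferase Agpat5. Those that fell were the phosphatase Lpin3, the desaturase Fads3 and the elongases Elovl6 and Elovl1. None of the 7 synthesis genes passed, and Fasn had a fitted log2 change of -0.01 (SE 0.39). That fit averages opposite moves of Fasn in the lines. It went from 65.9 RPKM at D0 to 46.8 RPKM at 4h in Cre, and from 59.2 to 75.1 RPKM in Vec. The numbers rest on single libraries. Scd1 lost its call without any one of Vec D0, Cre 4h, Vec 4h, Cre D2 or Vec D2. Of the 5 that rose, Scd1 and Acsl4 passed without Cre D0, Acsl4 alone without Vec 4h, and 0 without Vec D0. Of the 4 that fell, 0 passed without any one of Cre D0, Vec D0, Cre 4h or Vec 4h, and 8 members were lower without Cre D7 or without Vec D7.

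By D2, 7 of the 11 genes of triglyceride assembly had risen against D0. In all, 15 of the 38 members tested were higher at D2 than at D0 and 8 lower, set against 17.7% and 21% of all genes, so the share of members that fell was near that of all genes. The assembly genes were led by Dgat2 at a log2 change of 5.20 (SE 0.41), Agpat2 at 3.66 (SE 0.39), Dgat1 at 2.59 (SE 0.38) and Gpam at 2.30 (SE 0.37). Acsl1, the main long-chain acyl-CoA synthetase of adipocytes, rose by 5.61 (SE 0.53; edgeR adjusted p = 0.0029, Benjamini-Hochberg). The lower ones were Scd2, Fads1, Fads2, Fads3, Elovl1, Elovl6, Acsl5 and Lpin3. Without Vec D0, 5 of the 15 stayed higher (Acsl1, Agpat2, Lpin1, Dgat2 and Nr1h3) and 3 of the 8 stayed lower (Fads1, Acsl5 and Lpin3). Without Vec D2, 5 stayed lower. Against 4h, 13 members were higher at D2 and 7 lower, set against 15.4% and 18% of all genes, so the share that fell was near that of all genes. That comparison fell to 5 higher without Vec 4h, and to 4, 3 and 4 lower without Cre 4h, Vec 4h and Vec D2.

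At D7, 12 members were higher than at D0 and 1 was lower, set against 5.68% and 2.42% of all genes. All 3 regulators were among the 12, with Mlxipl (ChREBP) at a log2 change of 8.41 (SE 0.53), Nr1h3 (liver X receptor alpha) at 4.22 (SE 0.45) and Srebf1 (SREBP-1) at 2.09 (SE 0.45). The others were Thrsp, Acacb, Scd1, Acsl1, Gpam, Agpat2, Agpat3, Dgat1 and Dgat2, and the 1 lower member was Elovl6, which elongates palmitate. Their edgeR adjusted p (Benjamini-Hochberg) ran from 0.00494 for Mlxipl to 0.0489 for Srebf1. Without Cre D0, 4 of the 12 passed (Scd1, Dgat2, Mlxipl and Nr1h3), and without Vec D0, 0 passed. Without Vec D7, 8 passed, with Scd1, Gpam, Agpat3 and Srebf1 lost. Elovl6 lost its call without any one of the D0, 4h or D7 libraries, and 4 members were lower without Cre D2 or without Vec D2.

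Between D2 and D7, 2 of the 3 regulators rose and 3 of 7 elongation genes tested fell. At D7, 8 members were higher than at D2 and 5 lower, set against 15.4% and 8.93% of all genes. Acacb, Thrsp, Scd1, Fads1, Acsl5, Lpin3, Mlxipl and Nr1h3 rose, while Elovl3, Elovl4, Hsd17b12, Acsl4 and Agpat5 fell. Thrsp had the largest of these changes, 4.49 (SE 0.40), followed by Mlxipl at 4.32 (SE 0.39) and Acacb at 4.04 (SE 0.64). Without Vec D2, 3 of the 8 passed (Thrsp, Lpin3 and Mlxipl) and 0 of the 5. Without Vec D7, 5 of the 8 passed and 1 of the 5 (Hsd17b12). Of the 5 lower members, 2 (Elovl3 and Elovl4) passed without Cre D2 and the same 2 without Cre D7.

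Between the lines the pathway differed little at D0 and widely at D7. With 1 library a group there was no test at a single time. A member was counted as 2-fold different when log2(RPKM + 1) differed by at least 1 and at least 1 of the 2 libraries reached 1 RPKM, a rule that asks for a larger ratio at low levels. At D0, 0 of 32 members met it, set against 0.158% of all genes higher in Cre and 0.275% lower, and the members' median difference, Cre minus Vec, was -0.0017 on that scale. The largest D0 difference was 0.19, for Lpin3. At 4h, Scd1 and Lpin1 were at least 2-fold lower in Cre and 0 of 32 members higher, set against 2.59% and 1.65% of all genes. The members' median difference at 4h was 0.07, against 0.11 over all genes. Scaling by TMM, which shifts Vec 4h by 0.14 on the log2 scale, added Elovl5 to the lower ones, and a pseudocount of 5 took Lpin1 away. TMM also shifts Vec D7 by 0.10, which left the number at D7 as given for that time.

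At D2 the differences went both ways. Fads2 and Acsl3 were at least 2-fold higher in Cre, and Scd1 and Elovl3 at least 2-fold lower, among 36 members, set against 2.55% and 1.54% of all genes. The median difference was 0.02 for the members and -0.04 for all genes. With a pseudocount of 5 only Scd1 met the rule at D2, and with 0.1 Acss2 was added to the higher ones and Thrsp and Scd3 to the lower ones. Preadipocyte and fibroblast markers (Pdgfra, Pdgfrb, Dlk1, Cd34, Col1a1 and Thy1) summed to 872 RPKM in Cre D2 and 408 RPKM in Vec D2. Most of both sums was Col1a1, at 662 RPKM in Cre D2 and 244 RPKM in Vec D2. Of the 6 markers, 5 were higher in Cre at D2, Col1a1 alone by at least 2-fold. Cd34 was lower, at 26.0 RPKM in Cre D2 and 33.0 RPKM in Vec D2.

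At D7, 17 of 37 members were at least 2-fold lower in Cre and 0 higher, set against 3.12% and 1.39% of all genes. The lower ones were 5 of the 7 synthesis genes, 3 of the 6 desaturases, Acsl1, 5 of the 11 assembly genes and all 3 regulators, and 0 of the 6 elongation genes counted. In all, 28 of the 37 lay below 0 and the median difference was -0.87, against 0.03 over all genes. With a pseudocount of 5 the number at D7 was 12, with Acss2, Scd3, Agpat2, Lpin1 and Nr1h3 lost. Adipocyte genes differed in the same libraries: 10 of 10 were at least 2-fold lower in Cre at D7, with differences from -1.64 to -1.26. The preadipocyte and fibroblast markers were higher in Cre D7 for 6 of 6 and summed to 1902 RPKM in Cre D7 and 1011 RPKM in Vec D7. Col1a1 made up 1521 RPKM and 796 RPKM of these sums, and Dlk1 alone met the rule of 2-fold. Skeletal muscle markers summed to 32.9 RPKM in Cre D7 and 16.1 RPKM in Vec D7, where Ckm was without a read. Acta1 made up 18.7 RPKM and 10.2 RPKM of these sums, and Myl1 alone met the rule of 2-fold. At D0 the muscle markers had summed to 14.7 RPKM in Cre and 16.8 RPKM in Vec. In these bulk samples, fewer cells of a type and less RNA per cell cannot be told apart, and the part these markers have in the members' differences was not tested.

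**Figure D2:**
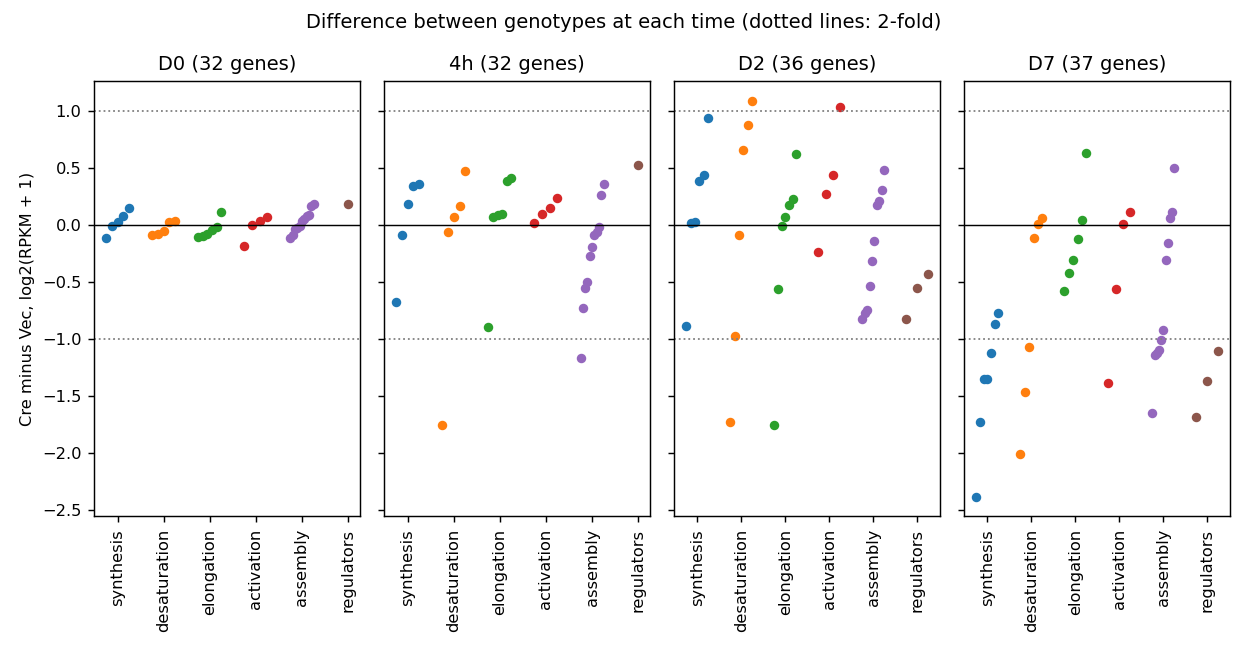
Difference between the lines in log2(RPKM + 1), Cre minus Vec, at D0, 4h, D2 and D7, with 1 point per gene counted at that time, grouped by role. Points lie near 0 at D0, Scd1 stands lowest at 4h, and 17 of 37 points lie at or below -1 (dotted line) at D7.

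Over all times together, Cre against Vec in the additive model gave 0 members and 0 of 12581 genes (0%) past an adjusted p of 0.05 in edgeR's quasi-likelihood test, Nr3c1 included among those not called. At an unadjusted p under 0.05 there were 8 members and 1501 genes. Scd1 had a fitted log2 difference of -1.45 (SE 0.35; edgeR adjusted p = 0.41, Benjamini-Hochberg), and DESeq2 on the same counts called 1 member, Scd1, lower in Cre. Over all genes DESeq2 called 4 of 12581 higher in Cre (0.0318%) and 15 lower (0.119%).

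Among the synthesis genes, Thrsp moved furthest. Its RPKM was 0.160, 0, 1.67 and 21.6 in Cre at D0, 4h, D2 and D7, against 0.205, 0, 3.94 and 117 in Vec. It was thus near or at 0 until 4h in both lines and lower in Cre than in Vec at D7, at 18.5% of Vec (95% exact interval of the ratio 0.168 to 0.204). Over the 4h libraries without a read, D2 was at least 4.46-fold higher in Cre and at least 16.7-fold higher in Vec, taking a floor of 3 reads per library. Acacb, the acetyl-CoA carboxylase that sits at mitochondria, had 0.978, 0.551, 0.778 and 4.64 RPKM in Cre, against 0.928, 0.461, 0.563 and 17.7 RPKM in Vec. It stayed below 1 RPKM until D2 in both lines, and at D7 Cre held 26.3% of the Vec level. The rise at D7 passed against D0 (log2 change 3.53, SE 0.62) and against D2.

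Fasn had 65.9, 46.8, 95.7 and 114 RPKM in Cre, against 59.2, 75.1, 94.3 and 292 RPKM in Vec. Cre was below Vec at 4h, the lines were level at D2, and at D7 Cre held 39.1% of the Vec level (ratio interval 0.385 to 0.397). Over both lines its D7 value missed the threshold against D0 (log2 change 1.68, SE 0.41; edgeR adjusted p = 0.0621, Benjamini-Hochberg). Acaca, the cytosolic carboxylase that makes malonyl-CoA for it, had 6.04, 4.30, 10.7 and 7.59 RPKM in Cre, against 5.67, 4.61, 10.5 and 20.8 RPKM in Vec. As with Fasn, both lines were level at D2 and apart at D7, where Cre held 36.4% of Vec. Acss2, which makes acetyl-CoA from acetate, had 9.74, 6.82, 18.1 and 12.4 RPKM in Cre, against 10.6, 5.10, 8.96 and 28.2 RPKM in Vec. The order of the lines turned round: Cre was 2.02-fold above Vec at D2 (interval 1.85 to 2.22) and at 44.1% of Vec at D7. The remaining genes, Acly (citrate lyase) and Me1 (malic enzyme, a source of NADPH), passed in no comparison. Acly lay between 48.8 and 78.0 RPKM in Cre and between 47.9 and 89.6 RPKM in Vec. Me1 lay between 20.3 and 42.4 RPKM in Cre and between 17.0 and 38.4 RPKM in Vec. At D7 Cre held 54.4% of the Vec level of Acly and 57.6% of that of Me1, so all 7 synthesis genes were below Vec there.

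**Figure D3:**
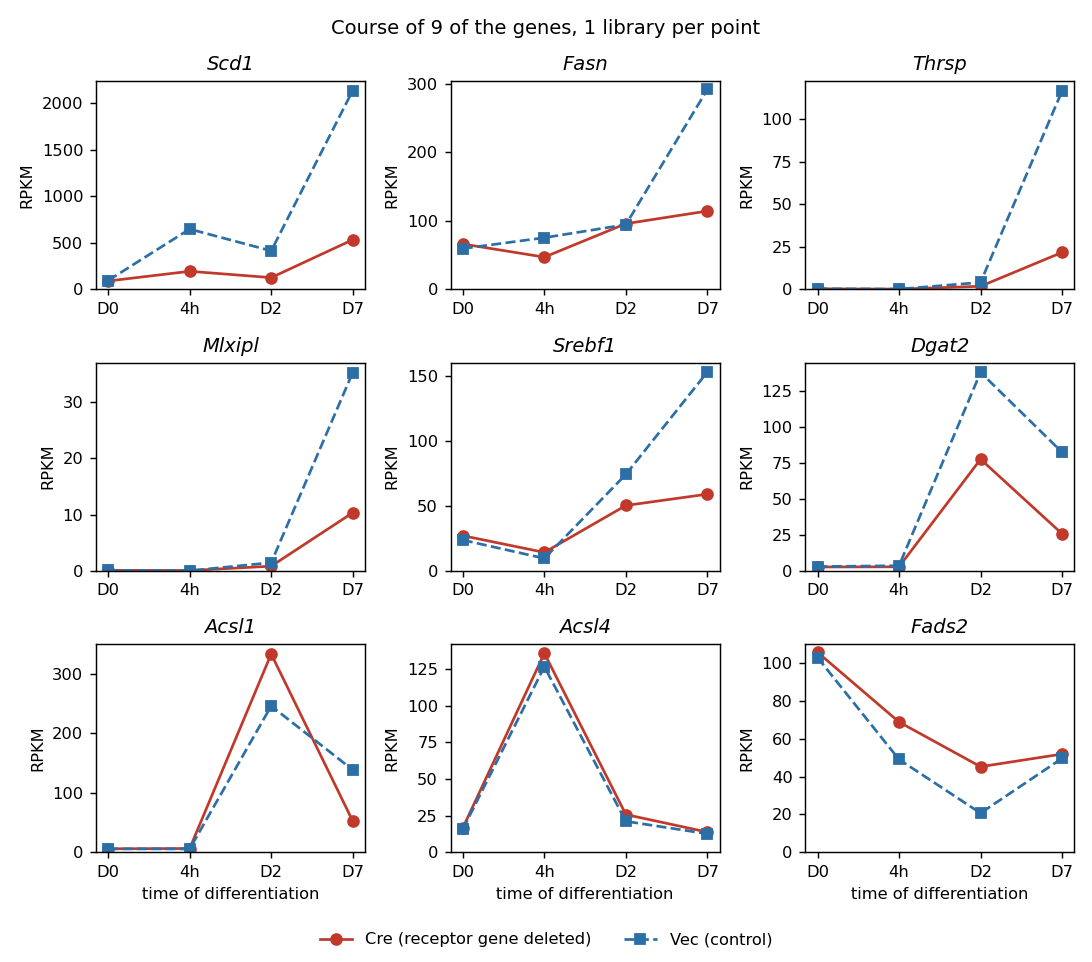
RPKM of 9 members at D0, 4h, D2 and D7 (evenly spaced, not to scale in time), with 1 library per point, Cre as circles on a solid line and Vec as squares on a dashed line. Scd1 separates the lines from 4h, Fasn, Thrsp and Mlxipl are furthest apart in RPKM at D7, and Acsl4 runs alike in both with a peak at 4h.

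Scd1, the stearoyl-CoA desaturase that makes oleate, was the most abundant member per length at D7. It had 87.3, 192, 124 and 531 RPKM in Cre at D0, 4h, D2 and D7, against 92.6, 646, 412 and 2137 RPKM in Vec. The lines were close at D0, and Cre was the lower at each later time. Cre held 29.7% of the Vec level at 4h (ratio interval 0.289 to 0.304), 30.02% at D2 (0.295 to 0.306) and 24.9% at D7 (0.246 to 0.251). Among the members, Scd1 alone was at least 2-fold lower in Cre at 4h, D2 and D7. Between D2 and D7 its log2(RPKM + 1) changed by 2.09 in Cre and by 2.37 in Vec, much the same step in both lines. Over both lines Scd1 was higher than at D0 at 4h (log2 change 1.93, SE 0.50) and at D7 (3.55, SE 0.53). Its call at 4h was lost without any one of Vec D0, Cre 4h, Vec 4h, Cre D2 or Vec D2. The call at D7 was lost without Vec D0 or without Vec D7.

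Scd2, the desaturase isoform of many tissues besides fat, was highest at D0 in both lines. It had 338, 215, 176 and 139 RPKM in Cre, against 357, 224, 187 and 291 RPKM in Vec, and it fell at D2 against D0 (log2 change -0.96, SE 0.29). Until D2 the lines were alike, and at D7 Cre held 47.7% of Vec. The ratio of Scd1 to Scd2 was 0.258, 0.890, 0.701 and 3.83 in Cre at the 4 times, against 0.259, 2.89, 2.20 and 7.35 in Vec. Scd2 was therefore the higher of the pair at D0 in both lines, Scd1 from 4h on in Vec, and Scd1 at D7 only in Cre. Scd3, another isoform, had 0.108, 0.299, 0.652 and 0.210 RPKM in Cre, against 0.196, 0.259, 2.25 and 2.34 RPKM in Vec. It rested on few reads, 18 in Cre D7 and 123 in Vec D7, and the sources used here do not say how reads matching several of these close paralogs were placed.

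Fads1 and Fads2, the desaturases of polyunsaturated acids, were high before induction and lower at D2. Fads1 had 114, 88.3, 42.8 and 68.9 RPKM in Cre, against 118, 78.3, 26.8 and 68.5 RPKM in Vec. Fads2 had 106, 68.8, 45.2 and 51.8 RPKM in Cre, against 103, 49.0, 20.7 and 49.6 RPKM in Vec. Both fell at D2 against D0, by 1.78 (SE 0.22) for Fads1 and by 1.75 (SE 0.30) for Fads2 on the log2 scale, and Fads1 rose again at D7 against D2. At D2 Cre was 2.18-fold above Vec for Fads2 (interval 2.02 to 2.37) and 1.60-fold above Vec for Fads1. At D7 the lines were level again, with Cre at 105% of Vec for Fads2. Fads3, a related desaturase, had 31.7, 12.5, 21.8 and 22.5 RPKM in Cre, against 31.0, 11.8, 11.4 and 24.4 RPKM in Vec. It too stood higher in Cre at D2, 1.91-fold (interval 1.77 to 2.06), short of the rule of 2-fold.

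The elongation genes peaked at different times. Elovl3, Elovl4 and Hsd17b12 were highest at D2 in both lines and fell by D7, and Elovl1 and Elovl6 were highest at D0 in both and fell at 4h and D2. Elovl3, known as a cold-induced elongase of brown fat, had 0.0221, 0.207, 1.20 and 0.108 RPKM in Cre, against 0, 0.0868, 6.40 and 0.245 RPKM in Vec. It thus passed 1 RPKM at D2 alone in both lines, and at D2 Cre held 18.8% of the Vec level (ratio interval 0.141 to 0.248; 60 reads in Cre and 347 in Vec). Its fall between D2 and D7 passed over both lines. Elovl6 had 16.8, 8.55, 6.61 and 4.88 RPKM in Cre, against 18.1, 6.16, 3.93 and 6.86 RPKM in Vec. It fell at 4h, D2 and D7 against D0, with log2 changes of -1.17 (SE 0.31), -1.77 (SE 0.31) and -1.47 (SE 0.31). Elovl5, which elongates polyunsaturated acids, had 45.7, 73.8, 36.6 and 42.6 RPKM in Cre, against 46.3, 138, 32.2 and 46.5 RPKM in Vec. It peaked at 4h in both lines, where Cre held 53.5% of Vec (ratio interval 0.505 to 0.567).

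Elovl4, an elongase of very long chains, had 3.51, 3.44, 4.06 and 2.23 RPKM in Cre, against 3.62, 3.23, 6.43 and 1.08 RPKM in Vec. It fell at D7 against D2 (log2 change -1.52, SE 0.37), and at D7 it was one of the members higher in Cre, 2.06-fold (interval 1.50 to 2.89). Elovl1, also of very long chains, had 37.0, 27.3, 23.7 and 25.8 RPKM in Cre, against 34.0, 20.6, 22.4 and 24.8 RPKM in Vec, and fell at 4h and D2. Hsd17b12, the ketoacyl-CoA reductase of the elongation cycle, had 42.3, 50.9, 127 and 44.2 RPKM in Cre, against 44.7, 47.6, 108 and 66.4 RPKM in Vec. It peaked at D2 in both lines, with a rise against D0 of 1.42 (SE 0.22). Tecr, the enoyl-CoA reductase that ends the cycle, passed in no comparison and lay between 57.4 and 72.8 RPKM in Cre and between 63.7 and 77.6 RPKM in Vec.

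Among the acyl-CoA synthetases, Acsl3 and Acsl4 were highest at 4h in both lines and Acsl1 at D2. Acsl4, which prefers arachidonate, had 16.7, 136, 25.8 and 13.8 RPKM in Cre, against 15.8, 127, 21.2 and 12.6 RPKM in Vec. It peaked at 4h in both lines with close levels, a rise of 3.12 (SE 0.14; edgeR adjusted p = 0.00342, Benjamini-Hochberg). Acsl1 had 5.92, 6.40, 334 and 52.7 RPKM in Cre, against 5.90, 5.66, 246 and 139 RPKM in Vec. It rose at D2 and was higher in Cre then, 1.36-fold, whereas at D7 Cre held 38.0% of Vec (ratio interval 0.366 to 0.393). Acsl3, an isoform of the endoplasmic reticulum and lipid droplets, had 15.4, 25.4, 13.6 and 8.72 RPKM in Cre, against 17.6, 21.3, 6.14 and 8.62 RPKM in Vec. At D2 it was 2.22-fold higher in Cre (interval 2.03 to 2.43), and at D7 the lines were level. Acsl5 had 16.7, 14.0, 5.84 and 13.2 RPKM in Cre, against 16.2, 13.8, 7.03 and 20.0 RPKM in Vec, with its lowest level at D2 in both. It fell at D2 against D0 by 1.39 (SE 0.18) on the log2 scale and rose at D7 against D2 by 1.48 (SE 0.18).

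In glycerolipid assembly, the first step, Gpam, had 12.7, 9.08, 66.0 and 52.6 RPKM in Cre, against 12.0, 13.7, 56.9 and 114 RPKM in Vec. It rose at D2 and D7 against D0, and at D7 Cre held 46.3% of Vec. Agpat2, the acyltransferase whose loss causes lipodystrophy in humans, had 10.4, 4.65, 155 and 51.6 RPKM in Cre, against 10.5, 4.87, 111 and 105 RPKM in Vec. Cre stood above Vec at D2 and at 49.3% of it at D7 (ratio interval 0.454 to 0.535), so Agpat2 only just met the rule of 2-fold. Agpat3, at 52.1% of Vec, only just missed it. Agpat3 had 20.2, 12.6, 23.1 and 31.7 RPKM in Cre, against 17.8, 13.5, 33.9 and 60.9 RPKM in Vec, and rose at D7 against D0 by 1.32 (SE 0.27). Agpat1 had 33.6, 32.8, 45.0 and 31.3 RPKM in Cre, against 32.3, 27.2, 49.6 and 38.9 RPKM in Vec, a small rise at D2 against D0 of 0.49 (SE 0.15). Agpat5 had 4.04, 6.00, 8.65 and 5.17 RPKM in Cre, against 4.33, 10.6, 15.1 and 5.85 RPKM in Vec. It was highest at D2 in both lines and lower in Cre at 4h and D2, at 56.7% and 57.1% of Vec. Agpat4 passed in no comparison, lay between 10.4 and 15.9 RPKM in Cre and between 7.62 and 16.2 RPKM in Vec, and was higher in Cre at D7, 1.47-fold (interval 1.25 to 1.73).

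Lpin1, the phosphatidate phosphatase that is mutated in the fatty liver dystrophy mouse, had 10.3, 4.17, 40.2 and 15.8 RPKM in Cre, against 10.5, 10.6, 69.0 and 36.0 RPKM in Vec. Close at D0, the lines differed from 4h on, with Cre at 39.4% of Vec at 4h (ratio interval 0.333 to 0.464), 58.2% at D2 and 44.0% at D7. Over both lines Lpin1 rose at D2 against D0 by 2.26 (SE 0.34). Lpin3 had 3.11, 0.822, 0.293 and 1.93 RPKM in Cre, against 2.61, 1.08, 0.579 and 1.71 RPKM in Vec, with its lowest level at D2 where Lpin1 had its highest. Lpin2 passed in no comparison and stayed between 4.60 and 6.68 RPKM in Cre and between 4.30 and 5.81 RPKM in Vec.

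Dgat1 and Dgat2, the 2 enzymes that close the triglyceride, came on at different times. Dgat1 had 11.0, 72.4, 72.2 and 41.5 RPKM in Cre, against 10.3, 73.3, 58.0 and 91.2 RPKM in Vec. It had risen by 2.86 (SE 0.38) at 4h already, with close levels in the lines. Dgat2 had 2.58, 2.71, 77.4 and 25.6 RPKM in Cre, against 2.87, 3.48, 138 and 82.2 RPKM in Vec. Its rise came between 4h and D2, by 4.97 (SE 0.42; edgeR adjusted p = 0.0026, Benjamini-Hochberg). Cre held 56.2% of the Vec level of Dgat2 at D2 and 31.2% at D7 (ratio interval 0.292 to 0.332), and 45.5% of that of Dgat1 at D7.

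Of the regulators, Srebf1 had 26.97, 14.1, 50.2 and 58.9 RPKM in Cre, against 23.6, 9.49, 74.1 and 153 RPKM in Vec. Its level was above that of the other regulators at every time in both lines. Mlxipl had 0.0682, 0.0356, 0.806 and 10.3 RPKM in Cre, against 0.0583, 0, 1.43 and 35.3 RPKM in Vec. It was close to 0 until 4h, and Cre held 29.3% of Vec at D7 (ratio interval 0.270 to 0.317), with 931 reads in Cre and 1954 in Vec. Nr1h3 had 0.898, 0.216, 3.54 and 8.71 RPKM in Cre, against 0.590, 0.272, 7.02 and 19.9 RPKM in Vec. For Nr1h3 Cre held 50.4% of Vec at D2 and 43.8% at D7, and for Srebf1 67.7% at D2 and 38.5% at D7. All 3 regulators thus lay below Vec at D2 and at D7, beyond 2-fold at D7 only.

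**Figure D4:**
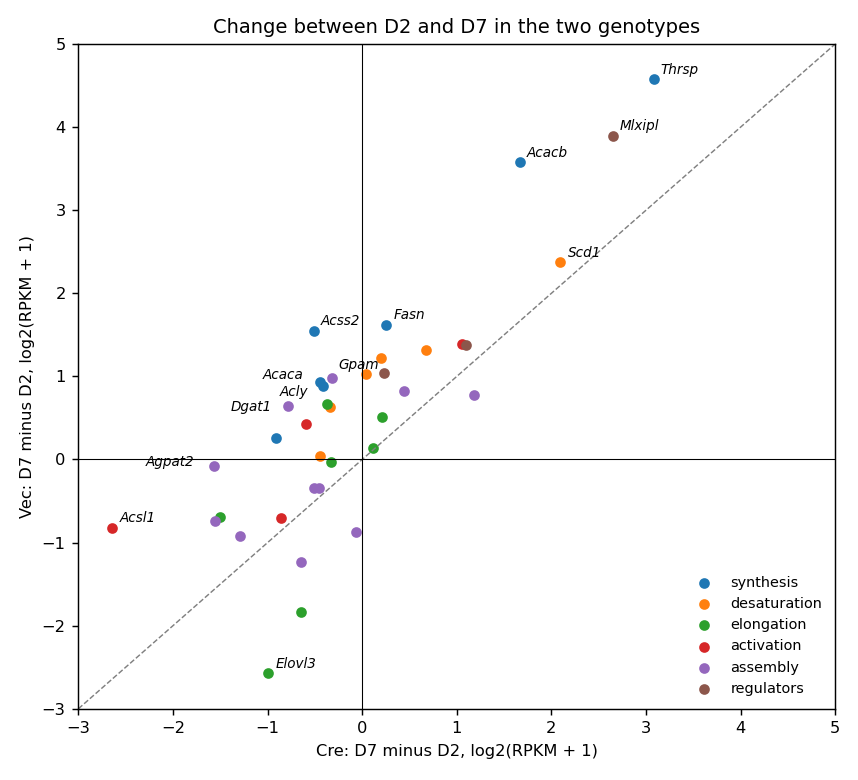
Change in log2(RPKM + 1) between D2 and D7 in Cre (horizontal axis) and in Vec (vertical axis) for the 38 members that passed the filter, 1 point per gene, coloured by role. Points above the dashed line grew more, or shrank less, in Vec, and Acss2 and Dgat1 stand at the upper left, below D2 in Cre and above it in Vec.

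Between D2 and D7 the members moved up on balance in Vec and down in Cre. Within Cre, 7 of 37 members were at least 2-fold higher at D7 than at D2 and 5 lower, set against 7.41% and 2.07% of all genes. Within Vec, 12 of 38 members were at least 2-fold higher and 3 lower, set against 9.81% and 5.01% of all genes. The members' median change was -0.35 in Cre and 0.64 in Vec on the log2(RPKM + 1) scale, against -0.06 in Cre and -0.10 in Vec over all genes. Acacb, Thrsp, Scd1, Acsl5, Mlxipl and Nr1h3 were at least 2-fold higher at D7 in both lines, and Lpin3 in Cre. In Vec the further ones were Acss2, Fasn, Fads1, Fads2, Fads3 and Srebf1. Those at least 2-fold lower at D7 were Hsd17b12, Acsl1, Agpat2, Lpin1 and Dgat2 in Cre, and Elovl3, Elovl4 and Agpat5 in Vec. The rule, on log2(RPKM + 1), asks for a larger ratio at low levels. Elovl3 fell in Cre too, from 1.20 to 0.108 RPKM, a change of -0.99. Likewise Lpin3 rose in Vec too, from 0.579 to 1.71 RPKM, a change of 0.78. Acsl1 changed by -2.64 in Cre and by -0.82 in Vec, and Agpat2 by -1.57 in Cre and by -0.08 in Vec. With 1 library a group, these differences between the lines were not tested.

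Between 4h and D2, 12 of 34 members were at least 2-fold higher at D2 in Cre and 3 lower, set against 5.92% and 7.28% of all genes. The share of members that were lower in Cre was near that of all genes. In Vec, 14 of 37 were higher and 5 lower, set against 10.2% and 9.74% of all genes. Thrsp, Hsd17b12, Acaca, Acsl1, Gpam, Agpat2, Lpin1, Dgat2, Srebf1 and Nr1h3 were among the higher ones in both lines. Between D0 and 4h, 3 of 32 members in Cre were at least 2-fold higher at 4h and 4 lower, set against 3.67% and 3.69% of all genes. In Vec 5 of 32 were higher and 4 lower, set against 5.52% and 8.04% of all genes. Scd1, Acsl4 and Dgat1 were higher at 4h in both lines, and Elovl5 and Agpat5 met the rule in Vec. Among the lower ones, Fads3 met the rule in both lines, Agpat2, Lpin1 and Lpin3 in Cre, and Fads2, Elovl6 and Srebf1 in Vec. All of these but Lpin1 fell in both lines, to either side of the rule. Agpat2 changed by -1.01 in Cre and by -0.97 in Vec, and Lpin3 by -1.17 and -0.80. Fads2 changed by -0.61 and -1.05, Elovl6 by -0.90 and -1.42, and Srebf1 by -0.89 and -1.23. Lpin1 changed by -1.12 in Cre and by 0.02 in Vec. Scd1 changed by 1.13 in Cre and by 2.79 in Vec, a difference that was not tested.

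**Figure D5:**
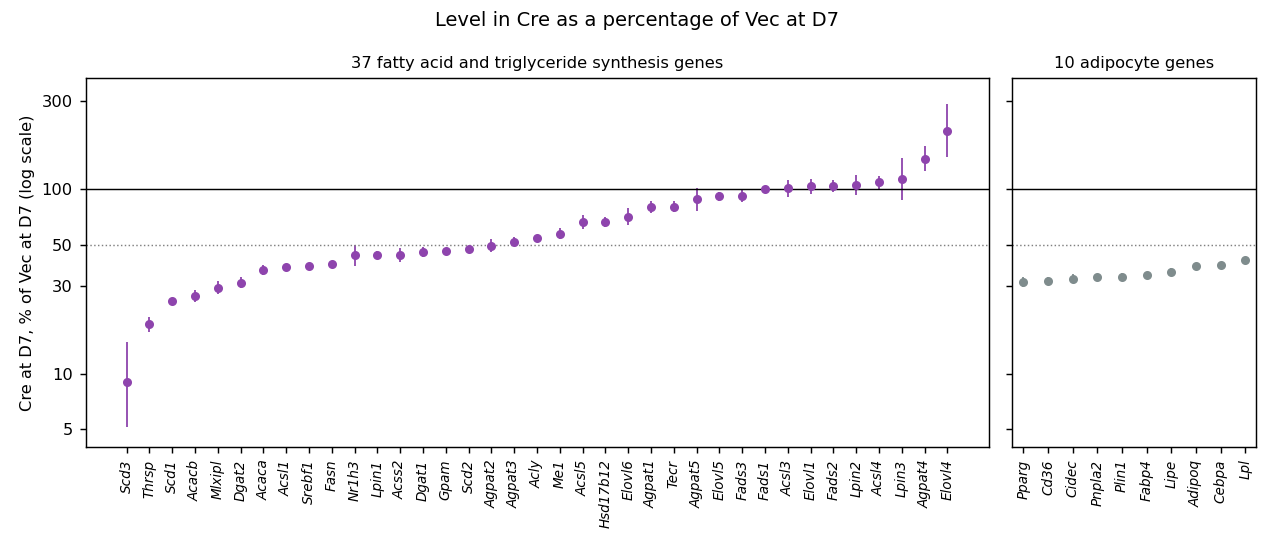
Level in Cre D7 as a percentage of Vec D7 on a log axis, for the 37 members counted at D7 (left) and 10 adipocyte genes (right), with bars for the 95% exact interval of counting error. Members run from Scd3 at 8.99% to Elovl4 at 206%, and the adipocyte genes lie between 31.5% (Pparg) and 41.5% (Lpl).

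Set beside the adipocyte genes, the members were spread more widely at D7. The 10 adipocyte genes lay between 31.5% and 41.5% of Vec in Cre D7. Below that range were Scd3 at 8.99%, Thrsp at 18.5%, Scd1 at 24.9%, Acacb at 26.3%, Mlxipl at 29.3% and Dgat2 at 31.2%. Above it were 27 of the 37 members counted, 18 of them under 100% and 9 over it. The 9, a division made after the values were seen, were Fads1, Acsl3, Elovl1, Fads2, Lpin2, Acsl4, Lpin3, Agpat4 and Elovl4, from 100% for Fads1 to 206% for Elovl4. In Vec, 13 of the 27 had a lower RPKM at D7 than at D0, these 9 among them. At D2 the adipocyte genes summed to 2276 RPKM in Cre and 2612 RPKM in Vec. By the rule of 2-fold, 1 of 10 (Adipoq) was higher in Cre and 0 lower, set against 2.55% and 1.54% of all genes. In all, 8 of the 10 lay below Vec in Cre at D2, set against 6671 of 11918 genes. Their median difference was -0.28, against -0.04 over all genes.

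Neighbouring steps of the pathway were read from lists of further genes. Of 12 genes of NADPH, citrate and malonyl-CoA metabolism, 7 rose at D2 against D0 (G6pdx, Taldo1, Slc25a10, Mlycd, Pdha1, Pcx and Mcat). At D7, 4 were higher than at D0 (Taldo1, Slc25a10, Mlycd and Pcx), and 0 fell at either time. These are set against 17.7% of all genes higher and 21% lower at D2, and 5.68% and 2.42% at D7. At D7 12 of 12 lay below Vec in Cre, set against 5805 of 12480 genes. Their median difference was -0.91, against 0.03 over all genes. Of the 12, 4 were at least 2-fold lower (Tkt, Slc25a1, Slc25a10 and Pcx), set against 3.12% of all genes. Pcx, pyruvate carboxylase, had 102 RPKM in Cre D7 and 273 RPKM in Vec D7. Among 14 genes that control SREBP, the liver X receptor or ChREBP, 13 were tested, 3 rose and 1 fell at D2, and 2 rose and 1 fell at D7. The number that rose at D2 was near the share of all genes. Insig1, which holds SREBP in the endoplasmic reticulum, had 41.5, 12.0, 86.4 and 52.1 RPKM in Cre at the 4 times, against 39.9, 13.3, 22.1 and 60.2 RPKM in Vec. It was thus 3.90-fold higher in Cre at D2 (interval 3.70 to 4.12), the time at which Fads2 and Acsl3 were also higher in Cre. Ppargc1b, a coactivator of SREBP, had 3.88 RPKM in Cre D7 and 17.9 RPKM in Vec D7. It was the 1 gene of 13 counted in the list at least 2-fold lower there, set against 3.12% of all genes. Of 28 further names of enzymes of the pathway, 22 were found among the RNA genes and 16 were tested. Of the 16, 9 rose and 4 fell at D2, and 6 rose and 1 fell at D7. Gpd1, which makes glycerol phosphate for the first acylation, had 131 RPKM in Cre D7 and 386 RPKM in Vec D7. With Acss3 it was one of 2 such enzymes, of 15 counted, at least 2-fold lower in Cre at D7. This is set against 3.12% of all genes. Hacd2, a dehydratase of the elongation cycle, had 20.9 RPKM in Cre D2 and 63.4 RPKM in Vec D2.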

How the data were processed

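RNA was measured in 8 libraries. The authors deposited, for every library, the read count of each RefSeq accession beside its RPKM, as the file headers name them. The submitters' processing notes name CASAVA 1.8.2, SICER and mm9; the sources used here do not give the aligner or counter of the RNA reads. Symbols came from a RefSeq table of GRCm38.p6, used for names only, which matched 28436 (97.8%) of 29082 accessions. The accession with the most reads stood for each gene; 11 of the 39 members have several. Count divided by RPKM gave back the total reads of a library, used as its depth.

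Levels, and Cre against Vec at each time, rest on the deposited RPKM, as a difference in log2(RPKM + 1) with no test. Read ratios have 95% Clopper-Pearson intervals (exact, conditional on the sum), with a floor of 3 reads at 0. The deposited counts entered edgeR's quasi-likelihood test (edgeR 4.0.16, R 4.3.3, TMM scaling) with time and genotype as additive terms and 3 residual degrees of freedom. It covered 12581 genes that reached 1 RPKM in 2 or more libraries. A run on simulated data without a difference between the lines checked that planted changes were recovered in size, not the error in these data. Alternatives were RLE size factors, no filter, a filter at 5 RPKM, pseudocounts of 0.1 and 5, DESeq2 1.42.0, limma 3.58.1 and leaving out each library. Nothing says that libraries came from separate cultures, so the spread may be technical.

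The members and all gene lists were chosen with earlier results of these data known. Values in every library are given for members that passed a test of time or differed at least 2-fold between the lines, and ranges for the others.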

Additional observations from a re-analysis of the deposited data

Results flagged for a closer look

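Acss2 and Dgat1 moved in opposite directions in the lines between D2 and D7. Acss2, which makes acetyl-CoA from acetate, changed by -0.51 in Cre and by 1.55 in Vec on the log2(RPKM + 1) scale, a difference of -2.06. Dgat1, which closes the triglyceride, changed by -0.78 in Cre and by 0.64 in Vec, a difference of -1.43. With both lines moving by at least 0.5, a minimum set after the values were seen, these 2 were 5.26% of the 38 members counted, set against 0.291% of all genes that were lower at D7 in Cre and higher in Vec. Without a minimum, 10 of 38 members (26.3%) had a lower level at D7 than at D2 in Cre and a higher one in Vec, set against 9.52% of all genes. The other 8 were Acly, Acaca, Me1, Scd2, Scd3, Elovl6, Acsl3 and Gpam, and 0 members went the other way, set against 10.4% of all genes. Between D0 and 4h, and between 4h and D2, 0 members passed the minimum in opposite directions. Between D0 and 4h without a minimum, 3 of 32 members (Fasn, Gpam and Lpin1) were lower at 4h in Cre and higher in Vec. These were 9.38%, set against 6.35% of all genes. Another 3 (Me1, Acsl1 and Lpin2, 9.38%) went the other way, set against 13.4% of all genes. Between 4h and D2, 1 of 37 (Elovl1, 2.7%) was lower in Cre and higher in Vec. The reverse held for 2 (Fads3 and Agpat4, 5.41%). These shares are set against 14.3% and 5.64% of all genes. The differences were not tested, since each line has 1 library per time.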

How the results depend on the processing

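Leaving out 1 library at a time moved the number of members passing at 4h against D0 between 0 and 5 higher and 0 and 8 lower. The range was 5 to 18 higher and 3 to 9 lower at D2 against D0, and 0 to 17 higher and 0 to 4 lower at D7 against D0. It was 5 to 16 higher and 3 to 6 lower at D2 against 4h, and 3 to 11 higher and 0 to 4 lower at D7 against D2. Cre against Vec over all times stayed at 0 without any single library.

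With genes kept at 5 RPKM in 2 libraries, 0 members were lower at D7 against D0 and 3 at D7 against D2. With DESeq2 these numbers were 3 and 8, and 1 member was lower in Cre over all times. Differences on a log2(RPKM + 5) scale left 1 member lower in Cre at 4h, and 0 higher and 1 lower at D2, whereas log2(RPKM + 0.1) gave 4 lower at D2. The cause was not tested. Of 1319 values of single members under these alternatives, 1081 kept their direction and side of the threshold, 205 lost a call (185 of them without a library), 33 moved and 0 reversed. The additive model already sets Cre against Vec within each time. No further replicate block could be fitted, since each group holds 1 library. Depth limits Scd3, Elovl3, Thrsp and Mlxipl before D2, which rest on few reads.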
